A study of Mus musculus with 2 samples.

Results

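The complement genes C1qa, C1qb, C1qc, C3, C4b, Cfb, Cfp, C3ar1, C5ar1 and Serping1 were followed through single-cell RNA libraries of mouse prostate. They were taken by symbol and are 10 of the 32285 genes in the deposited matrices. The series compares 1 library made from tumour tissue with 1 library made from normal tissue beside the tumour. Both combine sorted CD45+ cells (leukocytes) and CD45- cells in a single channel, so the share of each cell type depends on the sort. The labels used here give no strain, genotype, age or number of animals, so what drove the tumour and how many animals stand behind a library are unknown here.

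UMIs (unique molecular identifiers), each standing for 1 captured RNA molecule, numbered 92188538 over 8237 tumour barcodes and 77855775 over 6553 normal adjacent barcodes. The median was 6015 UMIs per barcode in tumour and 6017 in normal adjacent tissue, and 18 barcodes occurred in both libraries. After filtering, 7768 tumour cells and 6209 normal adjacent cells were left. With 1 library per group there was no replicate and no test. All ratios below are tumour over normal adjacent. The bracketed ranges are 95% intervals for counting error alone. Levels are CPM, the UMIs of a gene scaled to 1000000 UMIs of the named cells.

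Complement is a cascade of plasma and tissue proteins that tags and clears microbes, immune complexes and dying cells. In the classical pathway C1q, built from the chains of C1qa, C1qb and C1qc, binds antibody or cell debris and activates cleavage of C4 and then of C3. In the alternative pathway factor B (Cfb) forms the enzyme that cleaves C3, and properdin (Cfp) stabilises it. The small fragments C3a and C5a act on the receptors C3ar1 and C5ar1 of myeloid cells, and Serping1 encodes the C1 inhibitor. The liver makes most plasma complement, while macrophages are the known main source of C1q in tissues.

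Cells were gated by markers that hold no complement gene. A cell entered a gate with at least 3 distinct markers of a lineage and at least 2 times as many as of any other lineage. The gates held 627 tumour and 442 normal adjacent macrophages, 254 and 170 dendritic cells, 1119 and 556 neutrophils, 222 and 111 fibroblasts, 439 and 313 epithelial cells, 195 and 321 B cells, and 1972 and 2104 T or NK cells. Compared over these gates, genes outside the marker lists were highest in their own gate for each of them but dendritic cells. Apoe stood at 28327 CPM in tumour and 25430 CPM in normal adjacent macrophages, and S100a8 at 24811 and 28406 CPM in neutrophils. Col1a1 stood at 2064 CPM in tumour and 2354 CPM in normal adjacent fibroblasts. Cd74, of antigen presentation, had 28517 CPM in tumour and 29995 CPM in normal adjacent dendritic cells but 36661 and 43422 CPM in macrophages, and H2-DMb2 had 335 and 318 CPM in dendritic cells but 373 and 521 CPM in B cells. The leukocyte gene Ptprc was at 26.4 and 21.1 CPM in fibroblasts and at 10.7 and 13.4 CPM in epithelial cells. The monocyte gate held only 30 and 29 cells, and endothelial and mural gates at most 5 cells per library.

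The rule left 37.4% of tumour and 34.8% of normal adjacent cells outside every gate, and these cells matter for complement. Among them 1391 tumour and 1020 normal adjacent cells held at least 3 markers of both the macrophage and the T or NK list. They made up 17.9% of tumour and 16.4% of normal adjacent cells. Their median depth was 23074 UMIs in tumour and 28828 UMIs in normal adjacent tissue, against 8798 and 7738 UMIs in gated macrophages and 5338 and 5938 UMIs in gated T or NK cells. They held 64.8% of all C1q UMIs in tumour and 72.7% in normal adjacent tissue. They also held 67.2% and 73.3% of C3ar1 UMIs, 53.3% and 62.0% of C5ar1 UMIs, and 44.8% and 49.5% of Cfp UMIs. Their C1q level was 8017 and 7441 CPM, and their Cd3e level, a T cell receptor component, 154 and 220 CPM. Whether these barcodes hold more than 1 cell was not tested, and they enter no gate below.

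Promoters of the C1qb, C1qc and C3 genes are shown because C1qb and C1qc lie beside each other in the annotation, with C1qa next to C1qc, and were detected in the same cells, while C3 came from other cells. RefSeq promoters (GRCm38.p6, 250 bases before to 50 after the start site) were found for 6 of the 10 genes. C1qa, C4b, Cfb and Serping1 had no entry. Capitals mark matches on either strand to GAGGAA (the core bound by PU.1, a myeloid factor), TTGCNNAA (C/EBP), AANNGAAA (the core bound by interferon regulatory factors) or TGACTCA (AP-1), and no matches overlapped. The C1qb window is chr4:136886151-136886450, the C1qc window chr4:136892865-136893164 and the C3 window chr17:57228087-57228386, all on the minus strand.
C1qb: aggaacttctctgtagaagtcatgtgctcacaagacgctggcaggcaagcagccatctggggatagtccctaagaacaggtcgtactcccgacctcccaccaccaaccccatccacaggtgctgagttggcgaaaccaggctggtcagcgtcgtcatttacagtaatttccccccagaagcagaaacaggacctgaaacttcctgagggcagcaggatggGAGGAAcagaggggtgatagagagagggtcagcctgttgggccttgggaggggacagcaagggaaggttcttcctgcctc
C1qc: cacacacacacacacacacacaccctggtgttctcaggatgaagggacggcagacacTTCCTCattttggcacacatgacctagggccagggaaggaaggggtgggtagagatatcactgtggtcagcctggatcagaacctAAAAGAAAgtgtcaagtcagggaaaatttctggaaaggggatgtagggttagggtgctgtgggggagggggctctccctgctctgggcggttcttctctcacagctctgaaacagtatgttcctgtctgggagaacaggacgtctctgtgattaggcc
C3: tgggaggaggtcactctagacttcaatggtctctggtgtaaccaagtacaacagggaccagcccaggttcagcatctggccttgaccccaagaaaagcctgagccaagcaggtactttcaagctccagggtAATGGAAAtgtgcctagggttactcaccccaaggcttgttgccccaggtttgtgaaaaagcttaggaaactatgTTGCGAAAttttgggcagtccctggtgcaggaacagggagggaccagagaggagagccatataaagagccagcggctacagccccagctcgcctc

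GAGGAA occurred in the windows of C1qb, C1qc and Cfp, and in 28.3% of the 32851 promoters in the table. TTGCNNAA occurred in the window of C3, and in 10.8% of all promoters. AANNGAAA occurred in the windows of C1qc, C3 and C3ar1, and in 23.9% of all promoters. TGACTCA occurred in the window of C3ar1, and in 5.20% of all promoters. These are matches of letters and not shown to be bound.

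The C1q chains were macrophage genes in both libraries. C1qa stood at 6532 CPM in tumour and 6023 CPM in normal adjacent macrophages, C1qb at 6262 and 6023 CPM, and C1qc at 3819 and 3485 CPM. The summed C1q level was 16613 CPM in tumour macrophages and 15530 CPM in normal adjacent macrophages, a ratio of 1.07 (1.06 to 1.08). Of the other gates with at least 50 cells, none exceeded 969 CPM.

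In macrophages thinned to 1000 UMIs each, at least 1 C1q UMI was found in 99.2% of 605 tumour cells and 97.9% of 419 normal adjacent cells. The median thinned cell held 16 C1q UMIs in tumour and 15 in normal adjacent tissue. All 3 chains were detected in 87.8% of tumour and 85.7% of normal adjacent macrophages. C1q was thus a near-uniform feature of the gate, with only 5 and 9 thinned cells at 0. Of the C1q UMIs in macrophages, C1qa gave 39.3% (39.0 to 39.6) in tumour and 38.8% (38.4 to 39.2) in normal adjacent tissue. C1qb gave 37.7% and 38.8%, and C1qc 23.0% and 22.4%.

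**Figure D1:**
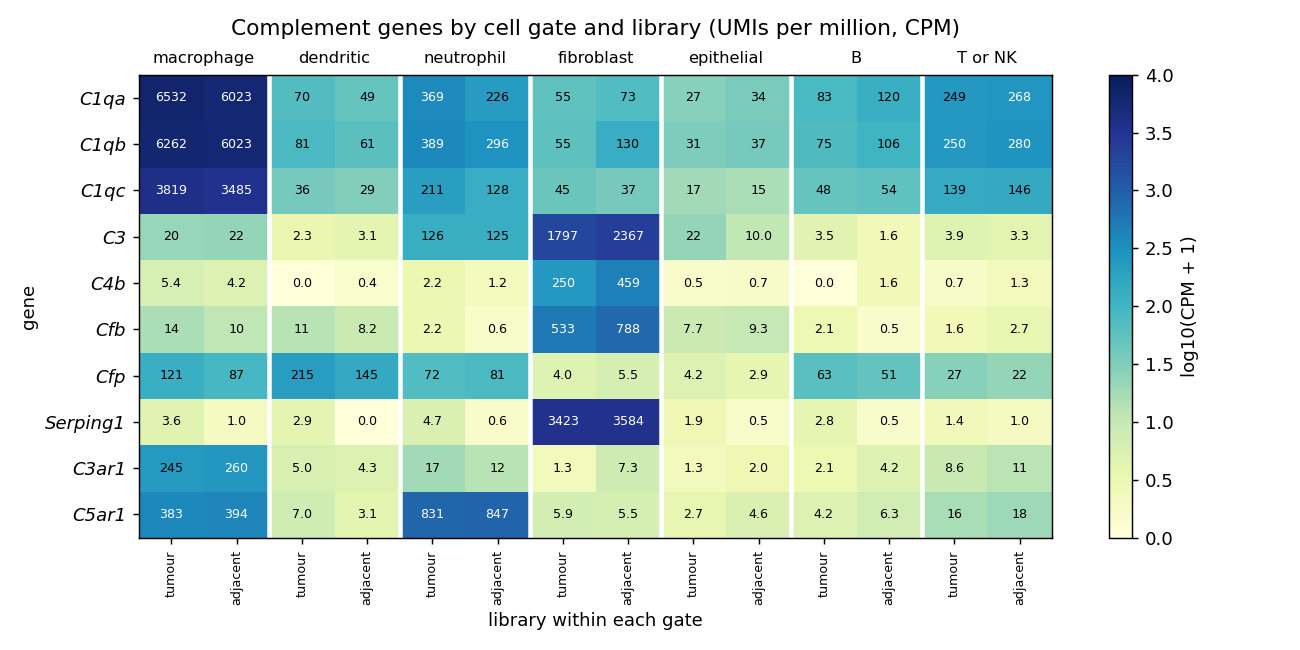
CPM of the 10 complement genes (rows) in 7 cell gates (columns), the tumour library left of the normal adjacent library in each gate, with the CPM printed in each cell and the colour showing log10(CPM + 1). The C1q chains peak in macrophages, C3, C4b, Cfb and Serping1 in fibroblasts, C5ar1 in neutrophils and Cfp in dendritic cells, in both libraries.

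C1q RNA also appeared in cells that are not a known source, at levels that set the background. In T or NK cells the summed level was 638 CPM (625 to 652) in tumour and 694 CPM (681 to 707) in normal adjacent tissue. In B cells it was 205 and 280 CPM. At 1000 UMIs per cell, 26.9% of tumour and 29.2% of normal adjacent T or NK cells had a C1q UMI, and 21.2% and 23.8% of B cells. Without thinning, 67.9% and 71.6% of T or NK cells and 55.4% and 66.4% of B cells had one. The median T or NK cell held 1 C1q UMI in both libraries.

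The lymphocyte signal moved with macrophage markers. T or NK cells with none of the 12 macrophage markers had 203 CPM of C1q in tumour and 208 CPM in normal adjacent tissue. Those with 1 marker had 330 and 419 CPM, and those with at least 2 had 1997 and 1980 CPM. The last class was 15.1% of the gate in tumour and 14.5% in normal adjacent tissue, and held 70.9% and 70.0% of its C1q UMIs. Its median depth was 7901 and 9089 UMIs, against 5025 and 5507 UMIs in cells with no macrophage marker.

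The chain shares in T or NK cells were close to those in macrophages. C1qa gave 39.0% in tumour and 38.6% in normal adjacent T or NK cells, C1qb 39.2% (38.2 to 40.3) and 40.4% (39.5 to 41.4), and C1qc 21.8% and 21.0%. The C1qb intervals lay above those of macrophages, 37.7% (37.4 to 38.0) in tumour and 38.8% (38.4 to 39.2) in normal adjacent tissue. In B cells C1qa gave 40.3% and 42.8%, C1qb 36.3% and 38.0%, and C1qc 23.4% and 19.2%. The 12 macrophage markers summed to 171 CPM in tumour and 177 CPM in normal adjacent T or NK cells, where all 12 had a UMI, against 4089 and 4103 CPM in macrophages. In B cells they summed to 75.2 and 75.5 CPM, with Mertk and Cd163 at 0 in tumour and Folr2 at 0 in normal adjacent tissue.

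**Figure D2:**
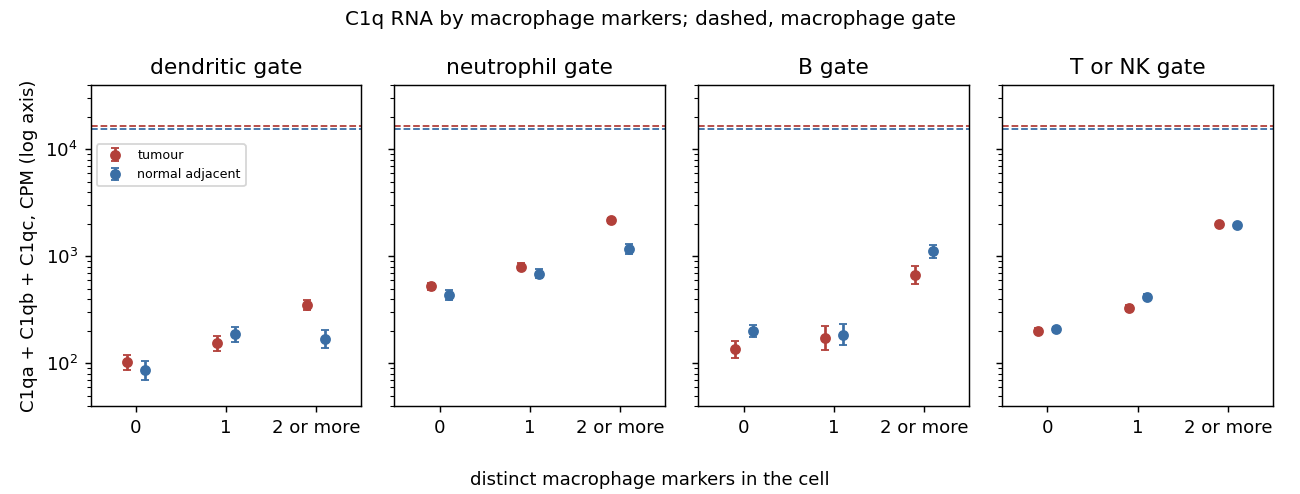
Summed C1q level (CPM, log axis) in dendritic, neutrophil, B and T or NK gates by the number of distinct macrophage markers in the cell, tumour left of normal adjacent. Bars are 95% Poisson intervals and dashed lines the macrophage gates. In T or NK cells the level runs from 203 to 1997 CPM in tumour across the 3 marker classes, below the 16613 CPM of tumour macrophages.

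Neutrophils carried more C1q RNA than T or NK cells per UMI in tumour. Their level was 969 CPM in tumour and 650 CPM in normal adjacent tissue, a ratio of 1.49 (1.39 to 1.60). Cells with at least 10 C1q UMIs, 4.83% of tumour and 2.70% of normal adjacent neutrophils, held 44.2% and 22.6% of these UMIs. Median depth was 2267 UMIs in tumour and 2875 UMIs in normal adjacent neutrophils, against 5338 and 5938 UMIs in T or NK cells. A C1q UMI was found in 43.1% of tumour and 42.0% of normal adjacent neutrophils at 1000 UMIs. C1qb gave 40.1% (38.3 to 42.0) of the C1q UMIs of tumour neutrophils and 45.6% (42.6 to 48.6) of those of normal adjacent neutrophils, above its share in macrophages. The level of neutrophils with no macrophage marker was 525 CPM in tumour and 436 CPM in normal adjacent tissue, and 2174 and 1167 CPM with at least 2 markers. Macrophage markers summed to 365 CPM in tumour and 292 CPM in normal adjacent neutrophils, with Cd163 at 0 in the second, and their part in the difference was not tested. Under a looser gate the log2 ratio turned to -0.058.

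Dendritic cells had 188 CPM of C1q in tumour and 139 CPM in normal adjacent tissue, fibroblasts 156 and 239 CPM, and epithelial cells 75.8 and 85.3 CPM. These levels lie below those of B cells and of T or NK cells in the same library. In normal adjacent fibroblasts 1 cell held 50.4% of the C1q UMIs. In dendritic cells, fibroblasts, epithelial cells, B cells and T or NK cells the direction of the C1q ratio turned under another gate, so no direction is given for them.

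Among the gates, C3, C4b, Cfb and Serping1 were fibroblast genes by level. C3, the central component of the cascade, stood at 1797 CPM (1731 to 1866) in tumour fibroblasts and 2367 CPM (2276 to 2460) in normal adjacent fibroblasts, from 2727 and 2577 UMIs. C4b, a substrate of the classical pathway, stood at 250 and 459 CPM, and Cfb at 533 and 788 CPM. Serping1 stood at 3423 CPM in tumour and 3584 CPM in normal adjacent fibroblasts. The fibroblast gate held 2.86% of tumour cells and 1.79% of normal adjacent cells. Much of this RNA lay in ungated cells. Of the C3 UMIs, fibroblasts held 2727 of 5796 in tumour and 2577 of 4723 in normal adjacent tissue, and ungated cells 2335 and 1693. For C4b fibroblasts held 380 of 842 and 500 of 935, and ungated cells 410 and 389. For Cfb fibroblasts held 809 of 1883 and 858 of 1737, and ungated cells 851 and 721.

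Serping1 marked nearly every fibroblast. At 1000 UMIs it was found in 90.5% of 190 tumour and 89.2% of 102 normal adjacent fibroblasts, against 0.155% and 0.0994% of T or NK cells. Without thinning the shares in fibroblasts were 95.5% and 99.1%. The gate held 74.1% of all Serping1 UMIs in tumour and 78.0% in normal adjacent tissue. Its highest level in another of the 7 gates was 4.69 CPM, in tumour neutrophils.

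C3 was less uniform among fibroblasts. It was found in 54.2% of tumour and 57.8% of normal adjacent fibroblasts at 1000 UMIs, C4b in 17.9% and 25.5%, and Cfb in 32.6% and 38.2%. In T or NK cells the thinned shares were 0.309% and 0.199% for C3, 0.103% and 0.0994% for C4b, and 0.155% and 0.0994% for Cfb. Both C4b and Cfb were found more often in fibroblasts with a C3 UMI. C4b was detected in 26.2% of 103 tumour fibroblasts with C3 and 8.05% of 87 without. In normal adjacent tissue it was detected in 35.6% of 59 fibroblasts with C3 and 11.6% of 43 without. Cfb was detected in 42.7% of tumour fibroblasts with C3 and 20.7% of those without, and in 49.2% and 23.3% in normal adjacent tissue.

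The fibroblast levels were lower in tumour under the gate used, but this depended on the gate. The ratio was 0.759 (0.719 to 0.802) for C3, 0.545 (0.476 to 0.624) for C4b, 0.677 (0.614 to 0.746) for Cfb and 0.955 (0.916 to 0.996) for Serping1. A strict gate asked for at least 4 own markers and at most 1 of any other lineage. It held 61 tumour and 26 normal adjacent fibroblasts. Under it the log2 ratio turned to 0.76 for C3, 2.01 for Cfb and 0.79 for Serping1. For C4b it was 0.062 (-0.70 to 0.83), from 31 tumour and 31 normal adjacent UMIs, so no direction is read. In normal adjacent tissue 1 fibroblast held 37.6% of the Cfb UMIs, and without the top cell of each library the Cfb log2 ratio was -0.08, against -0.56 with it. Median depth also differed, at 5331 UMIs in tumour and 8081 UMIs in normal adjacent fibroblasts, and its part was not tested. C4b has a near-identical copy, C4a, which had 31 UMIs over both libraries, and Cfb overlaps the annotated gene Gm20547 on its own strand, so how their reads were assigned is uncertain.

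**Figure D3:**
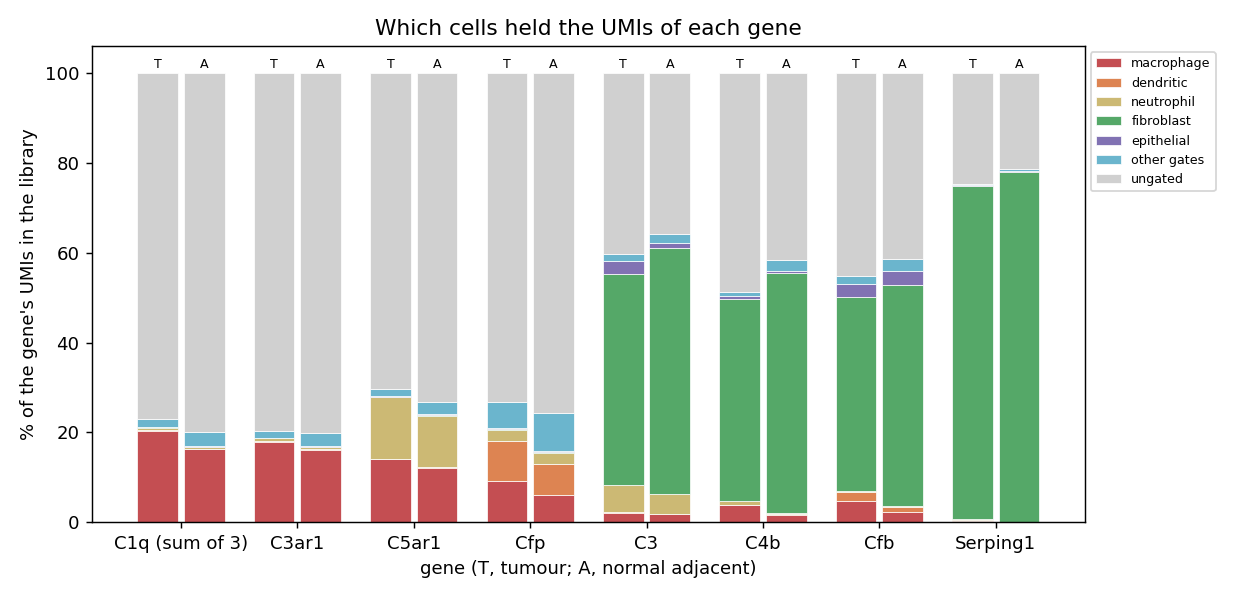
Share of each gene's UMIs in a library (%, y axis) held by each gate and by ungated cells, with tumour (T) left of normal adjacent (A). Fibroblasts hold 74.1% and 78.0% of Serping1, while ungated cells hold 77.0% and 80.0% of C1q.

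C3 RNA was also found in neutrophils, at 126 CPM (113 to 140) in tumour and 125 CPM (108 to 143) in normal adjacent tissue, a ratio of 1.01 (0.849 to 1.20). At 1000 UMIs per cell 8.89% of tumour and 10.6% of normal adjacent neutrophils held a C3 UMI, and 21.4% and 26.3% without thinning. Lymphocytes set the background at 3.88 and 3.29 CPM in T or NK cells. The other fibroblast members were near 0 in the same neutrophils. Serping1 was at 4.69 and 0.591 CPM, C4b at 2.17 and 1.18 CPM, and Cfb at 2.17 and 0.591 CPM. Col1a1 was at 3.61 and 3.54 CPM. The 12 fibroblast markers summed to 44.4 CPM in tumour neutrophils and 21.3 CPM in normal adjacent neutrophils, with Loxl1, Col6a3 and Fbn1 at 0 in both. Among tumour neutrophils at equal depth, 8.67% of cells with a C5ar1 UMI and 9.13% of cells without one held C3. The shares were 12.2% and 8.73% in normal adjacent tissue.

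Monocytes had C3 at 144 CPM in tumour and 151 CPM in normal adjacent tissue, from 31 and 41 UMIs in 30 and 29 cells. Macrophages had 20.3 and 21.7 CPM and dendritic cells 2.35 and 3.13 CPM.

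In epithelial cells C3 was low, and higher in tumour under the gate used. It stood at 21.7 CPM (18.5 to 25.3) in tumour and 9.99 CPM (7.55 to 13.0) in normal adjacent epithelium, from 164 and 56 UMIs, a ratio of 2.18 (1.6 to 3.0). Under the strict gate the levels were 10.6 and 5.84 CPM, from 17 and 6 UMIs, and the log2 ratio of 0.86 (-0.55 to 2.49) had an interval that includes 0. Of the tumour cells 15.7% held a C3 UMI and of the normal adjacent cells 7.99%, at median depths of 13542 and 9182 UMIs. Thinned to 1000 UMIs the shares were 2.54% of 394 tumour cells and 0 of 263 normal adjacent cells, which allows up to 1.14% of cells with a UMI at that depth. Basal epithelial cells had 38.3 CPM in 97 tumour cells and 8.99 CPM in 52 normal adjacent cells, a ratio of 4.26 (2.04 to 10.3) that rests on 65 and 8 UMIs. Luminal cells had 17.1 and 9.47 CPM, a ratio of 1.80 (1.24 to 2.65), or a log2 ratio of 0.61 (-1.07 to 2.51) under the strict gate. Of the 12 fibroblast markers, Dcn alone gave 963 of 986 CPM in tumour and 726 of 744 CPM in normal adjacent epithelium, while Col1a1 was at 0.795 and 1.07 CPM and Serping1 at 1.86 and 0.535 CPM. The part of fibroblast RNA in the epithelial C3 level was not tested.

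Among the gates, properdin (Cfp), which myeloid cells are known to release, was highest in dendritic cells. It stood at 215 CPM (200 to 231) in tumour and 145 CPM (131 to 160) in normal adjacent dendritic cells, a ratio of 1.48 (1.31 to 1.68). The level was highest in type 2 dendritic cells, at 638 CPM in 64 tumour cells and 388 CPM in 29 normal adjacent cells, a ratio of 1.65 (1.38 to 1.97). They held 503 of the 732 dendritic Cfp UMIs in tumour and 170 of 371 in normal adjacent tissue. Type 1 cells had 85.6 and 65.8 CPM, a ratio of 1.30 (0.94 to 1.81). Migratory cells ran the other way, with 25.1 and 48.9 CPM and a ratio of 0.513 (0.303 to 0.852), from 26 and 44 UMIs. Type 2 cells were 64 of the 254 dendritic cells in tumour and 29 of the 170 in normal adjacent tissue. The part of this mix in the ratio of the whole gate was not tested. A Cfp UMI was found in 92.2% of tumour and 93.1% of normal adjacent type 2 cells, against 5.98% and 5.09% of T or NK cells. At 1000 UMIs per cell the shares were 53.1% (40.2 to 65.7) and 20.7% (7.99 to 39.7) in type 2 cells, from 34 and 6 cells with a UMI, and 1.70% and 0.795% in T or NK cells. The median depth of type 2 cells was 12092 UMIs in tumour and 15430 UMIs in normal adjacent tissue, and that of T or NK cells 5338 and 5938 UMIs.

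Macrophages had Cfp at 121 CPM in tumour and 87.3 CPM in normal adjacent tissue, a ratio of 1.38 (1.22 to 1.58). Neutrophils had 71.8 and 80.9 CPM, B cells 62.7 and 51.1 CPM, and T or NK cells 27.2 and 21.8 CPM. Ungated cells held 73.1% of all Cfp UMIs in tumour and 75.6% in normal adjacent tissue. The dendritic and macrophage ratios were above 1 under each of the 7 alternatives, and ranged on the log2 scale down to 0.33 in dendritic cells and 0.13 in macrophages. With thinned cells both intervals included 1. Few macrophages held Cfp once depth was equal, 6.61% in tumour and 6.68% in normal adjacent tissue.

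**Figure D4:**
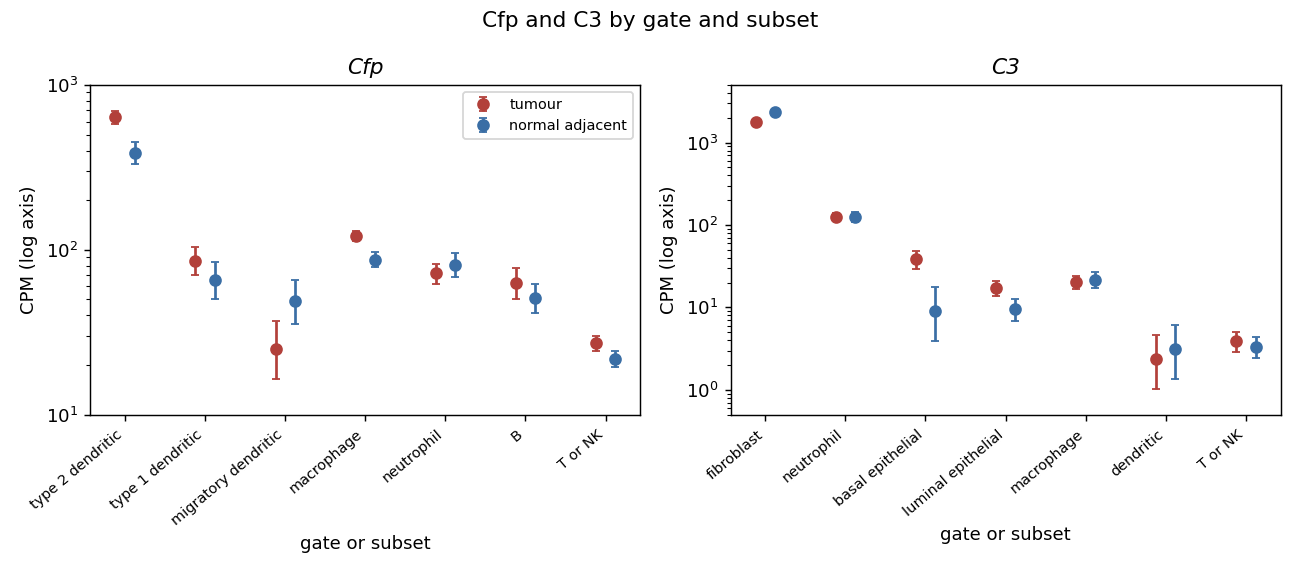
CPM (log axes) of Cfp (left) and C3 (right) by gate or subset, tumour left of normal adjacent, with 95% Poisson intervals. Cfp is highest in type 2 dendritic cells (638 and 388 CPM), and C3 in neutrophils (126 and 125 CPM) lies between fibroblasts and the low level of T or NK cells.

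The receptor of C5a, C5ar1, was highest in neutrophils and macrophages among the gates. It stood at 831 CPM (798 to 866) in tumour and 847 CPM (804 to 892) in normal adjacent neutrophils, a ratio of 0.981 (0.918 to 1.05). Macrophages had 383 CPM in tumour and 394 CPM in normal adjacent tissue, a ratio of 0.973 (0.912 to 1.04). Both intervals include 1, although a strict gate gave a log2 ratio of -0.43 (-0.58 to -0.27) in macrophages, an interval that leaves out 0. At 1000 UMIs 51.8% of tumour and 53.2% of normal adjacent neutrophils held a C5ar1 UMI, and 26.9% and 29.8% of macrophages. T or NK cells held one in 1.44% and 1.14%. Monocytes had 144 and 136 CPM, and dendritic cells 7.05 and 3.13 CPM. Ungated cells held 70.4% of all C5ar1 UMIs in tumour and 73.3% in normal adjacent tissue.

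The receptor of C3a, C3ar1, was more restricted. Macrophages had 245 CPM (232 to 257) in tumour and 260 CPM (244 to 277) in normal adjacent tissue, a ratio of 0.940 (0.867 to 1.02). Neutrophils had 17.3 and 11.8 CPM, from 48 and 20 UMIs, and T or NK cells 8.58 and 11.3 CPM. Among the gates C3ar1 was thus a macrophage gene, while C5ar1 was shared with neutrophils. Ungated cells held 79.7% of all C3ar1 UMIs in tumour and 80.0% in normal adjacent tissue. At 1000 UMIs C3ar1 was found in 20.2% of tumour and 25.8% of normal adjacent macrophages, against 0.670% and 0.745% of T or NK cells. C5ar1 was detected in 35.2% of tumour macrophages with C3ar1 and 24.8% of those without. The shares were 47.2% and 23.8% in normal adjacent tissue.

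The members were also read against all genes. A gene was counted as higher or lower where its level differed at least 1.5-fold and it had at least 20 UMIs over both libraries. In macrophages 1 of 10 members was higher in tumour (Serping1, with 22 and 4 UMIs), against 6.64% of 10384 genes, and 0 were lower, against 5.08%. In neutrophils 2 of 7 were higher, C1qa and C1qc, against 9.10% of genes, and 0 lower, against 8.74%. Neither neutrophil value reached 1.5-fold under another gate, with log2 ratios of 0.39 under a strict gate and -0.012 under a loose gate for C1qa, and 0.32 and -0.040 for C1qc. In fibroblasts 0 of 7 were higher, against 8.49%, and 2 lower, C4b and C1qb, against 9.97%. Under the strict gate the C4b log2 ratio was 0.062 (-0.70 to 0.83). C1qb in fibroblasts was not recomputed, but summed C1q there turned to 1.12 under the strict gate. In normal adjacent tissue 1 fibroblast held 50.4% of those C1q UMIs under the gate used. In epithelial cells 1 of 8 was higher, C3, against 8.42%, and 1 lower, C5ar1 with 20 and 26 UMIs, against 4.05%. In dendritic cells 1 of 7 was higher, C5ar1 with 24 and 8 UMIs, against 9.80%, and 0 lower, against 4.59%. In B cells 0 of 4 were higher, against 6.48%, and 0 lower, against 16.5%. In T or NK cells 0 of 10 were higher, against 4.22%, and 2 lower, C4b and Cfb with at most 42 UMIs, against 4.11%. The median log2 ratio of the members tested was 0.12 in macrophages, against 0.04 over all genes tested there. It was 0.48 in dendritic cells, against 0.06, and 0.39 in neutrophils, against 0.03. It was -0.41 in fibroblasts, against -0.04, and -0.25 in epithelial cells, against 0.10. It was -0.34 in B cells, against -0.22, and -0.13 in T or NK cells, against 0.01. The members tested in each gate include C1qa, C1qb and C1qc. The neutrophil median is the value of C1qb, whose direction turned under a loose gate. The fibroblast median is that of C1qa, with an interval of -0.87 to 0.056. The dendritic median is that of Cfb, with an interval of -0.32 to 1.32. No shift of the members as a set is read from these medians.

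**Figure D5:**
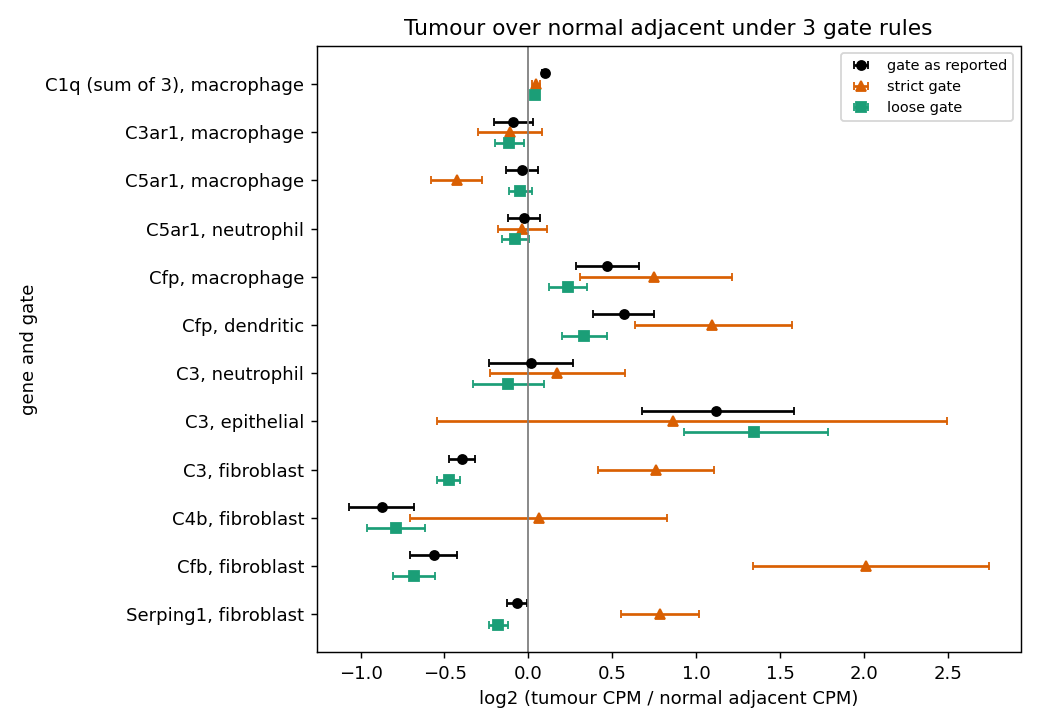
Log2 ratio of CPM, tumour over normal adjacent, for 12 gene and gate pairs under the gate used, a strict gate and a loose gate, with 95% counting intervals. The 4 fibroblast genes lie below 0 under the gate used and above 0 under the strict gate, while Cfp lies above 0 under all 3. The strict interval of C4b includes 0.

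Of 42 other complement genes, 12 passed the rule for naming and 17 had under 50 UMIs, 5 of them none. Several were fibroblast genes like C3. The C1 proteases stood at 279 CPM in tumour and 472 CPM in normal adjacent fibroblasts for C1ra and at 581 and 731 CPM for C1s1. The classical protease C2 had 132 and 168 CPM, the terminal component C7 132 and 144 CPM, and the collectin Colec12 344 and 374 CPM. Fibroblasts thus held RNA for C1 proteases, C2, C4b, C3, Cfb and the C1 inhibitor, but C1q only at background level.

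Among regulators elsewhere, clusterin (Clu), an inhibitor of the terminal complex, stood at 3705 CPM in tumour and 3849 CPM in normal adjacent epithelium. Cd55, a membrane inhibitor of C3 cleavage, had 187 CPM in tumour and 270 CPM in normal adjacent B cells. It also had 95.6 and 98.3 CPM in fibroblasts and 73.3 and 70.7 CPM in epithelial cells. Cr1l, a rodent membrane regulator, was spread over all gates, at 43.7 to 105 CPM in tumour and 49.6 to 97.0 CPM in normal adjacent tissue. The subunits of complement receptor 3, Itgam and Itgb2, had 198 and 269 CPM in tumour and 219 and 250 CPM in normal adjacent neutrophils. Itgb2 was shared among leukocytes, at 199 CPM in tumour and 205 CPM in normal adjacent macrophages. It had 190 and 160 CPM in dendritic cells and 205 and 231 CPM in T or NK cells. Itgam had 153 and 125 CPM in macrophages. Itgax, of complement receptor 4, was also shared among leukocytes, at 127 CPM in tumour and 139 CPM in normal adjacent macrophages. It had 122 and 98.9 CPM in dendritic cells and 45.2 and 49.9 CPM in T or NK cells. In both libraries its level in neutrophils lay between those of dendritic cells and of T or NK cells. C1qbp, a mostly mitochondrial C1q-binding protein, was spread over all gates but neutrophils. It stood there at 79.8 to 108 CPM in tumour and 66.7 to 117 CPM in normal adjacent tissue, and in neutrophils at 12.6 and 7.68 CPM. By the same 1.5-fold rule, 0 of 13 tested genes of the list were higher in tumour fibroblasts, against 8.49% of all genes, and 3 lower, against 9.97%. No ratio of this list was recomputed under another gate, although C3, Cfb and Serping1 in fibroblasts turned under the strict gate. In tumour epithelium 3 of 12 were higher, against 8.42%, and 1 lower, against 4.05%. In dendritic cells 1 of 6 was higher, against 9.80%, and 1 lower, against 4.59%. In neutrophils 1 of 8 was higher, against 9.10%, and 0 lower, against 8.74%. In B cells 0 of 7 were higher, against 6.48%, and 2 lower, against 16.5%. In macrophages 0 of 8 were called in either direction, against 6.64% of genes higher and 5.08% lower. In T or NK cells 0 of 9 were called, against 4.22% higher and 4.11% lower.

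Across the 7 gates and 2 libraries, 14 points in all, the genes with a pattern most like that of C1qa were Ccl12 (Pearson r = 0.986 of log2 CPM), Stab1, Fcrls, Clec4a1 and Lair1, all highest in macrophages. Those most like C3 were Tnfaip6 (r = 0.975), Cped1, Pi16, Igfbp6 and Gadd45g, all highest in fibroblasts. Those most like C5ar1 were Slc11a1 (r = 0.991), Arl11, Gpr84, Il1a and Clec5a, all highest in neutrophils. The points share their libraries, and gates of 1 library share its free RNA, so these are descriptions.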

How the data were processed

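Single-cell RNA libraries of mouse prostate tumour (1) and normal tissue adjacent to tumour (1) were analysed from the deposited matrices of raw UMI counts per gene and barcode, which per the file headers are output of Cell Ranger 4.0.0. The submitters' processing notes also name R 4.0.3 and Seurat 3.2.2, whose output was not used here. No source used here names the mouse build of the matrices, and coordinates come from RefSeq promoters alone.

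Barcodes with under 200 genes (55 in tumour, 21 in normal adjacent tissue) or over 20% mitochondrial UMIs (459 and 337) were removed. No doublet caller was run. The requirement of 2 times as many own as other markers kept cells with similar numbers of markers of different lineages out of the gates, but gated cells could still hold a few markers of another lineage. Raw counts were summed per gate and library. Free RNA was not removed. Levels (CPM) have exact Poisson intervals, ratios exact conditional binomial intervals and shares Clopper-Pearson intervals, at 95%. For shares at equal depth each cell was thinned to 1000 UMIs. A count of 0 was read as allowing 3 counts. The scripts were tested on simulated counts. Python 3.11.15, NumPy 2.4.6, SciPy 1.17.1, pandas 2.3.3 and matplotlib 3.10.9 were used.

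The 10 members, the marker lists and the list of 42 other complement genes were chosen with earlier results of these data known. One more gene of that list is not reported here. All members were named. Other complement genes were named with at least 50 UMIs and a highest gate level of at least 100 CPM (C4a, outside this rule, is named as a copy of C4b), and for likeness the 5 highest correlations of log2(CPM + 10) were named among genes with at least 200 UMIs. Ratios were recomputed under 7 alternatives for the pairs the text turns on and for those at 5% or more of a member's highest gate.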

Additional observations from a re-analysis of the deposited data

Results flagged for a closer look

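The C3 ratio ran in opposite directions in fibroblasts and epithelial cells of the same libraries, and the difference was not tested. Its log2 ratio, tumour over normal adjacent, was -0.40 in fibroblasts and 1.12 in epithelial cells, each with a counting interval that leaves out 0. The fibroblast value turned to 0.76 under a strict gate, so the contrast depends on which fibroblasts are counted, and the epithelial value rests on 164 tumour and 56 normal adjacent UMIs and had an interval that includes 0 under the same strict gate (0.86, -0.55 to 2.49).

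The summed C1q ratio also ran both ways, and its differences between gates were not tested. The log2 ratio was 0.10 in macrophages, 0.44 in dendritic cells and 0.58 in neutrophils, and -0.62 in fibroblasts, -0.44 in B cells and -0.12 in T or NK cells. In the 5 gates outside macrophages the levels were at most 969 CPM, and each direction turned under another gate.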

How the results depend on the processing

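No paired analysis was possible because each group is 1 library and no test was made. A log2 ratio (tumour over normal adjacent) was counted as reversed only where its reported interval left out 0. Of 31 ratios, 23 had such an interval, and 10 of these reversed under none of 7 alternatives. The other 8 had an interval that includes 0, and 4 of them changed sign, in 9 values: summed C1q in epithelial cells, C3 and Cfp in neutrophils (C3 -0.12 under a loose gate, Cfp 0.33 under a strict gate) and Cfp in B cells (-0.72 under a strict gate). Of all 213 values 151 stayed within the counting interval of the reported value, 45 moved and 17 reversed. No value reversed without the filter on cells, with a stricter one, or with CPM over UMIs without mitochondrial, ribosomal protein and haemoglobin genes.

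C1q in macrophages moved to 0.046 with a strict gate, 0.040 with a loose gate and 0.048 with thinned cells. The strict gate reversed C3 (0.76), C4b (0.062), Cfb (2.01), Serping1 (0.79) and summed C1q (1.12) in fibroblasts, and summed C1q in dendritic cells (-0.87) and T or NK cells (0.028). The strict intervals of C4b (-0.70 to 0.83) and of summed C1q in T or NK cells (-0.070 to 0.126) included 0. The loose gate reversed summed C1q in neutrophils (-0.058), fibroblasts (1.22), B cells (0.077) and T or NK cells (0.087), and C1qa (-0.012), C1qb (-0.11) and C1qc (-0.040) in neutrophils. Thinning reversed summed C1q in fibroblasts (0.21) and C1qb in macrophages (-0.0093), and leaving out the top cell reversed summed C1q in fibroblasts (0.18). The causes were not tested. Thinning gave no C3 value in epithelial cells, where normal adjacent cells held 0 UMIs, and the strict gate none in basal cells.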
